A study of Rattus norvegicus with 8 samples.

Results

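The 36 genes described here carry glycolysis, glucose and lactate transport, glycogen turnover, pyruvate oxidation and the response to low oxygen. They were followed in neonatal rat ventricular cardiomyocytes (NRVCMs), the beating muscle cells of newborn rat hearts kept in primary culture. They were taken from a list of 37 symbols as the rows of a transcript table that carry those names, and the transcripts of each gene were summed. They are 36 of the 12784 gene symbols in the table. Pfkfb1, the remaining symbol, has no row in the table used here. All 36 averaged 0.5 FPKM or more across the libraries, the level set for testing, so no member was lost to that filter. FPKM is a level scaled for transcript length and library size.

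The study compared NRVCMs transduced with an adenovirus for HectD3, an E3 ubiquitin ligase, with NRVCMs transduced with an adenovirus for LacZ, a bacterial enzyme used as the control. The cells came from newborn rats, Wistar by the methods text and Sprague Dawley by the reporting summary, with no genetic change described, and the viral genes were driven by the CMV promoter, which is active in many cell types besides muscle cells. Cells of both groups were cultured for 24 h before the virus was added and were collected 72 h later. Each group had 4 libraries, described by the submitters as biological replicates, and p-values measure the spread between these libraries. The comparison asks how raised HectD3 alters the transcripts of a heart muscle cell.

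Glycolysis splits glucose into pyruvate in the cytosol. Its first steps spend ATP on sugar phosphates, its later steps return ATP, and the pyruvate is either reduced to lactate or oxidised in mitochondria. The newborn heart leans on glycolysis, and the adult heart turns to fatty acids and to muscle forms of several of these enzymes. Under low oxygen the transcription factor HIF escapes degradation and raises many genes of glucose use, together with genes for vessel growth and acid handling.

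Hectd3 was read in every library before any member. The LacZ libraries held 7.89, 7.86, 6.18 and 6.49 FPKM and the HectD3 libraries 546.6, 915.3, 590.0 and 161.1 FPKM, so the groups did not overlap and HectD3 4 carried the lowest level of the transduced libraries (exact permutation test, two-sided, p = 0.0286, the smallest that 4 against 4 allows). The libraries also differed within groups. On the axis that held most of the variation over all genes, LacZ 1 and LacZ 2 lay at -40.8 and -27.1, HectD3 4 at -13.4 and the other 5 libraries between 9.01 and 18.8. The summed level of 7 cardiomyocyte markers was 12943 and 12153 FPKM in LacZ 1 and LacZ 2 and 13877 FPKM in HectD3 4, against 16225 to 18911 FPKM in the other libraries, and 4 smooth muscle markers showed the same 3 libraries at 1566 to 2152 FPKM and the rest at 2572 to 3637 FPKM. Fibroblast markers, of which 6 of 7 were present, summed to 1673 to 1934 FPKM with overlapping groups, 4 of 5 endothelial markers to 67.6 to 89.7 FPKM, and 5 of 6 macrophage and leukocyte markers to 78.7 to 107.5 FPKM. None of 4 erythroid markers had a row. Such sums weigh the most abundant markers most. At an unadjusted p under 0.05 in the limma fit given below, 2 cardiomyocyte markers and 1 smooth muscle marker were lower with HectD3. By the same measure, 1 endothelial marker and 1 macrophage and leukocyte marker were higher, and no other marker was called. Of all genes tested, 4.28% were lower and 2.87% higher. In such bulk samples, fewer cells of a type and less RNA per cell cannot be told apart.

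Between the groups, the glycolytic, glucose and hypoxia genes differed little beside their spread within groups. By limma on log2(FPKM + 1), with p adjusted by Benjamini-Hochberg for 12567 genes, 0 of the 36 members passed an adjusted p of 0.05, and the only gene of the whole table to pass was Hectd3 (0.00796% of genes tested). At an unadjusted p under 0.05, 1 member was higher with HectD3, the aldolase gene Aldoc, and 2 were lower, Car9 and Pfkfb2. These counts correspond to 2.78% and 5.56% of the members, beside 2.87% of all genes tested that were higher and 4.28% that were lower, so the shares were near the background. The same 3 genes were those whose groups did not overlap, 1 above and 2 below, beside 2.44% of all genes above and 2.81% below. The median log2 fold change was -0.01 over the members and -0.02 over all genes tested. With values rescaled as TPM, the background itself shifted to 5.85% lower and 1.38% higher and the members to 3 lower and 1 higher. Single libraries moved these counts. The lower members numbered 1 without LacZ 1 or without LacZ 2, 5 without LacZ 3 and 4 without LacZ 4, and the higher members numbered 2 without HectD3 2. The background moved too, to 2.79% and 2.62% of genes lower without LacZ 1 and LacZ 2, 6.88% and 5.70% lower without LacZ 3 and LacZ 4, and 2.04% higher without HectD3 2. Without HectD3 4 the groups did not overlap for 3 members above and 4 below, beside 4.14% and 5.58% of genes, and without HectD3 2 for 2 members above, beside 3.88%. Leaving out a library can only keep or add such separations.

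**Figure D1:**
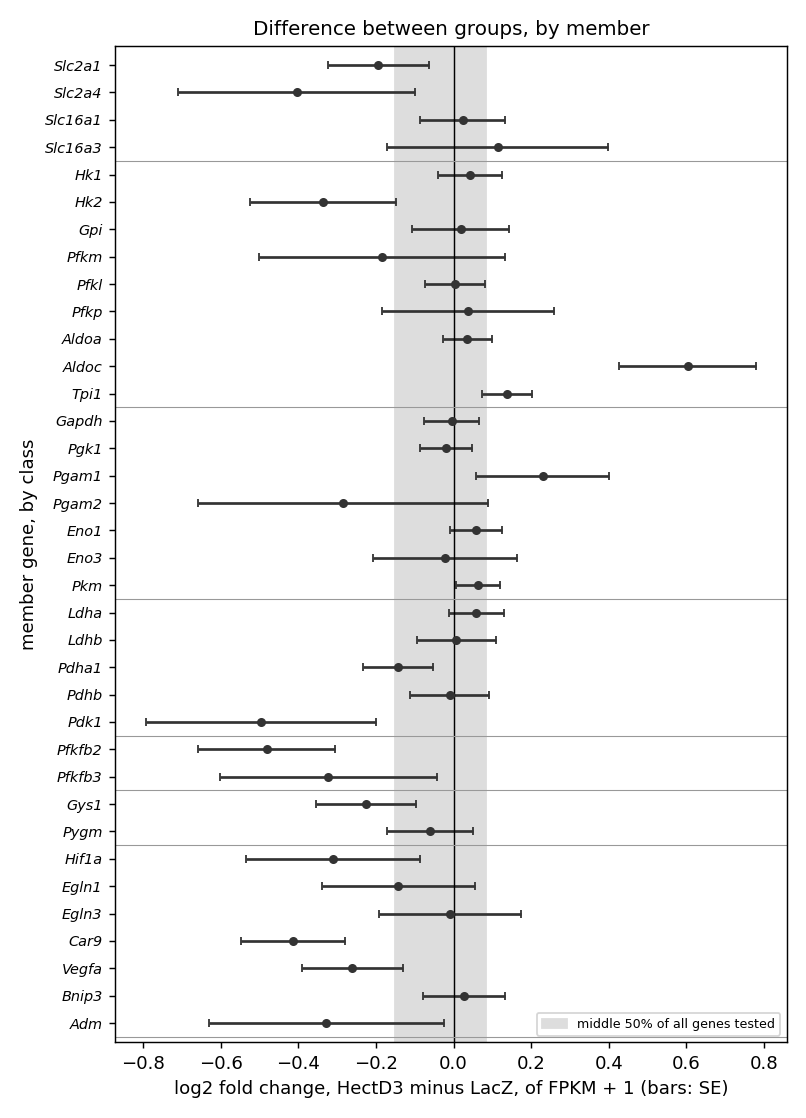
Each point is the log2 fold change of a member, HectD3 minus LacZ on the log2(FPKM + 1) scale, with its standard error as the bar and the middle 50% of all genes tested as the grey band. Aldoc lies farthest to the right at 0.60, and Pdk1, Pfkfb2, Car9 and Slc2a4 lie farthest to the left, between -0.50 and -0.40.

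The 16 glycolytic enzymes from hexokinase to pyruvate kinase made up 0.797% ± 0.027 (SD, n = 4) of all FPKM in the LacZ group and 0.786% ± 0.033 (SD, n = 4) in the HectD3 group. Across single libraries the share ran from 0.739% in HectD3 4 to 0.826% in LacZ 2. The groups overlapped.

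Aldoc, which encodes the aldolase isozyme known from brain, had the largest log2 fold change of the members on the log2(FPKM + 1) scale with all libraries in (ENSRNOG00000011452, plus strand of chromosome 10 from 65586504 to 65590126 in the deposited table, whose genome build is not stated, as for the positions of the next genes). Its level was 42.6, 40.6, 41.0 and 38.1 FPKM in LacZ 1 to 4 and 50.8, 59.0, 52.3 and 94.5 FPKM in HectD3 1 to 4. Every HectD3 library lay above every LacZ library, and HectD3 4, which had the least Hectd3 of the HectD3 libraries, held the most Aldoc. The group means were 40.6 ± 1.88 and 64.2 ± 20.5 FPKM (SD, n = 4 each), a ratio of 1.58. The log2 fold change was 0.60 (SE 0.18, limma adjusted p = 0.549). Without HectD3 4 it was 0.40 (SE 0.08, limma adjusted p = 0.328). Leaving out LacZ 1, LacZ 2 and HectD3 4 together gave 0.44 (SE 0.09, adjusted p = 0.214). The signal came from the transcript named Aldoc-201, at 32.9 to 42.1 FPKM with LacZ and 50.3 to 93.6 FPKM with HectD3, while the other 2 Aldoc transcripts stayed at or below 3.01 FPKM in every library.

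Car9 encodes carbonic anhydrase 9, a membrane enzyme that handles acid outside the cell and a textbook HIF target. It was the least abundant member (ENSRNOG00000017073, plus strand of chromosome 5 from 59008933 to 59015528). The LacZ libraries held 1.44, 1.48, 1.00 and 1.09 FPKM and the HectD3 libraries 0.431, 0.944, 0.570 and 0.831 FPKM. The gap between the closest libraries of the groups was small, from 0.944 FPKM in HectD3 2 to 1.00 FPKM in LacZ 3. The group means were 1.25 ± 0.24 and 0.694 ± 0.235 FPKM (SD, n = 4 each), and the log2 fold change was -0.41 (SE 0.13, limma adjusted p = 0.605). At such a level the size of the change follows the pseudocount, and with 0.1 in place of 1 it was -0.80 (SE 0.27, adjusted p = 0.644).

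Pfkfb2 encodes the heart form of the PFKFB enzymes, which make and remove the sugar bisphosphate that activates phosphofructokinase (ENSRNOG00000004162, minus strand of chromosome 13 from 47413458 to 47440682). Its level was 5.61, 4.33, 3.24 and 3.44 FPKM with LacZ and 2.81, 3.03, 1.83 and 3.01 FPKM with HectD3. LacZ 1 and LacZ 2 were the highest, and the distance from HectD3 2 to LacZ 3 was smaller than the spread within either group. The means were 4.15 ± 1.08 and 2.67 ± 0.57 FPKM (SD, n = 4 each). The log2 fold change was -0.48 (SE 0.18, limma adjusted p = 0.671). It no longer had an unadjusted p under 0.05 when LacZ 1, LacZ 2 or HectD3 3 was left out, and with its most abundant transcript alone the change was -0.21. Pfkfb3, the inducible form, was low as well, at 5.22, 7.81, 7.19 and 3.93 FPKM with LacZ and 5.81, 2.83, 3.19 and 7.27 FPKM with HectD3. These groups overlapped, with a log2 fold change of -0.32 (SE 0.28, limma adjusted p = 0.756). Of its 2 transcripts, Pfkfb3-203 was listed at 0 in HectD3 2 and HectD3 3 and at 2.28 to 6.00 FPKM in the other libraries, so the division of Pfkfb3 reads between transcripts varied from library to library.

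**Figure D2:**
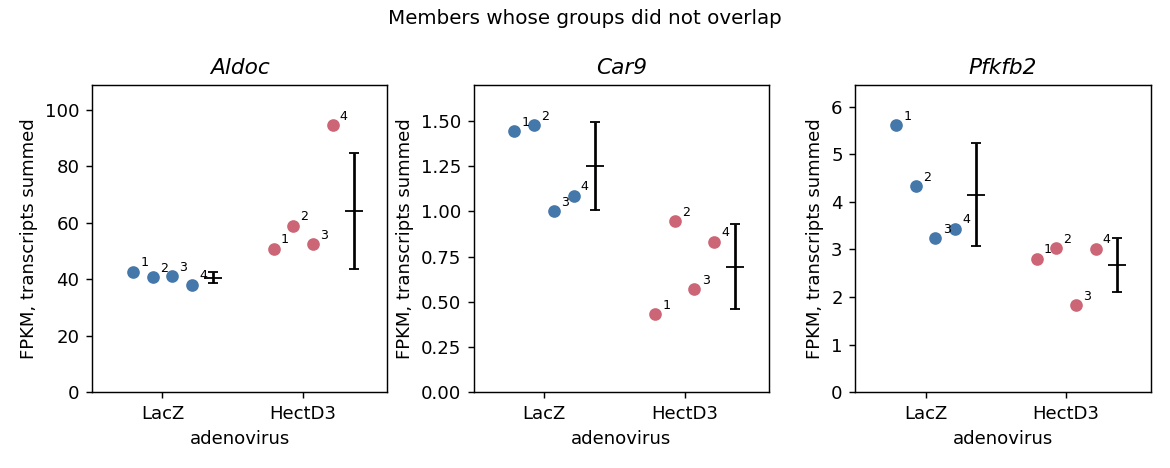
FPKM of Aldoc, Car9 and Pfkfb2 in the 4 LacZ and 4 HectD3 libraries, each point a library with its replicate number, beside the group mean and SD in black. Aldoc sits at 38.1 to 42.6 with LacZ and 50.8 to 94.5 with HectD3, and the Car9 and Pfkfb2 groups are separated by narrow gaps.

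The transporters set what enters and leaves the pathway. Slc16a1, the lactate and pyruvate carrier MCT1, was the most abundant of them, at 93.4, 93.8, 109.5 and 107.2 FPKM with LacZ and 86.2, 107.1, 98.5 and 120.5 FPKM with HectD3. The groups overlapped, and the log2 fold change was 0.02 (SE 0.11, limma adjusted p = 0.959). Slc2a4, the insulin-responsive glucose transporter GLUT4, was at 59.4, 55.9, 24.7 and 23.8 FPKM in LacZ 1 to 4, so the LacZ libraries formed a high and a low pair. Its HectD3 libraries, at 23.4, 28.1, 26.4 and 35.8 FPKM, lay within that range apart from HectD3 1. Slc2a1, the basal transporter GLUT1, was flatter, at 51.7, 41.1, 42.4 and 41.5 FPKM with LacZ and 35.0, 37.6, 33.4 and 49.1 FPKM with HectD3. Slc16a3, the lactate exporter MCT4, went the other way from Slc2a4 over the libraries, at 15.1, 16.4, 27.6 and 23.6 FPKM with LacZ and 28.3, 22.1, 29.6 and 12.1 FPKM with HectD3. None of these 4 genes had an unadjusted p under 0.05. With LacZ 1, LacZ 2 and HectD3 4 left out, the 2 LacZ libraries that remained held more Slc2a1 than the 3 HectD3 libraries (log2 fold change -0.24, SE 0.08, limma adjusted p = 0.405).

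In the ATP-spending steps, Aldoa, the muscle aldolase, was the most abundant gene, at 1008, 1075, 1047 and 1003 FPKM with LacZ and 1084, 1038, 1074 and 1040 FPKM with HectD3. Its log2 fold change was 0.04 (SE 0.06, limma adjusted p = 0.880). Hk1, the hexokinase of the newborn heart, was at 144.5 to 175.6 FPKM over all 8 libraries. Hk2, the insulin-responsive hexokinase of adult muscle, was at 19.3, 21.1, 16.9 and 19.6 FPKM with LacZ and 18.8, 14.1, 19.1 and 9.86 FPKM with HectD3, and held 8.79% to 12.6% of the FPKM of Hk1 and Hk2 in the LacZ libraries and 6.15% to 10.3% in the HectD3 libraries. Gpi, the isomerase that follows hexokinase, averaged 229.6 FPKM with a range of 191.5 to 269.9. Tpi1, which interconverts the triose phosphates, averaged 181.9 FPKM with a range of 167.2 to 198.4. Another gene, Spsb2, overlaps Tpi1 on the opposite strand at 7.11 to 9.69 FPKM, and the sources used here do not say whether strand was used in the counting. Of the 9 genes of these steps, 1 was higher at an unadjusted p under 0.05 (Aldoc) and 0 were lower.

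Phosphofructokinase, the committed step, showed the widest exchange between isozymes. Pfkm, the muscle form, was at 183.6, 168.2, 69.1 and 75.1 FPKM in LacZ 1 to 4 and 88.0, 109.0, 84.7 and 118.4 FPKM in HectD3 1 to 4. Pfkp, the platelet form, was at 80.0, 75.8, 136.7 and 124.2 FPKM in the same LacZ libraries and 128.0, 99.9, 116.0 and 77.1 FPKM in the HectD3 libraries. Where Pfkm was high, Pfkp was low, and Pfkl, the liver form, kept to 30.3 to 35.8 FPKM throughout. The 3 forms together summed to 225.8 to 297.5 FPKM. Pfkm accounted for 61.7% and 60.8% of that sum in LacZ 1 and LacZ 2, 28.7% and 32.0% in LacZ 3 and LacZ 4, and 34.9%, 44.6%, 35.9% and 52.4% in HectD3 1 to 4. The spread within LacZ was therefore wider than the distance between the group means of 45.8% ± 17.9 and 42.0% ± 8.20 (SD, n = 4 each).

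In the ATP-yielding steps, Gapdh was the most abundant of all members, at 1134, 1132, 1011 and 1029 FPKM with LacZ and 1105, 1036, 1098 and 1049 FPKM with HectD3. Its log2 fold change was 0.00 in size (SE 0.07, limma adjusted p = 0.990). Pgk1, the kinase that follows it, averaged 365.3 FPKM with a range of 340.4 to 387.5. Eno1, the ubiquitous enolase, was at 506.4, 517.6, 548.6 and 533.1 FPKM with LacZ and 586.3, 531.3, 556.5 and 520.2 FPKM with HectD3. Pkm, the pyruvate kinase, averaged 243.3 FPKM with a range of 235.3 to 256.3. The isozymes of muscle moved more. Pgam2, the muscle phosphoglycerate mutase, was at 46.6, 43.1, 15.4 and 19.1 FPKM with LacZ and 15.9, 23.1, 20.0 and 35.8 FPKM with HectD3. Pgam1, its brain and general form, was at 138.6, 190.6, 243.5 and 239.3 FPKM and at 245.6, 233.1, 254.4 and 200.4 FPKM. Pgam2 thus held 25.2% and 18.5% of the FPKM of Pgam1 and Pgam2 in LacZ 1 and LacZ 2, 5.94% and 7.40% in LacZ 3 and LacZ 4, and 6.08%, 9.02%, 7.29% and 15.1% in the HectD3 libraries. Eno3, the muscle enolase, was at 67.8, 49.6, 35.1 and 36.9 FPKM with LacZ and 44.6, 45.5, 41.4 and 48.9 FPKM with HectD3, which was 6.02% to 11.8% of the FPKM of Eno1 and Eno3 with LacZ and 6.92% to 8.58% with HectD3. Of these 7 genes, 0 had an unadjusted p under 0.05 in either direction. Gapdh has processed copies in rodent genomes, and how the authors' tools assigned reads shared with such copies was not examined, so its level is uncertain to that extent.

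**Figure D3:**
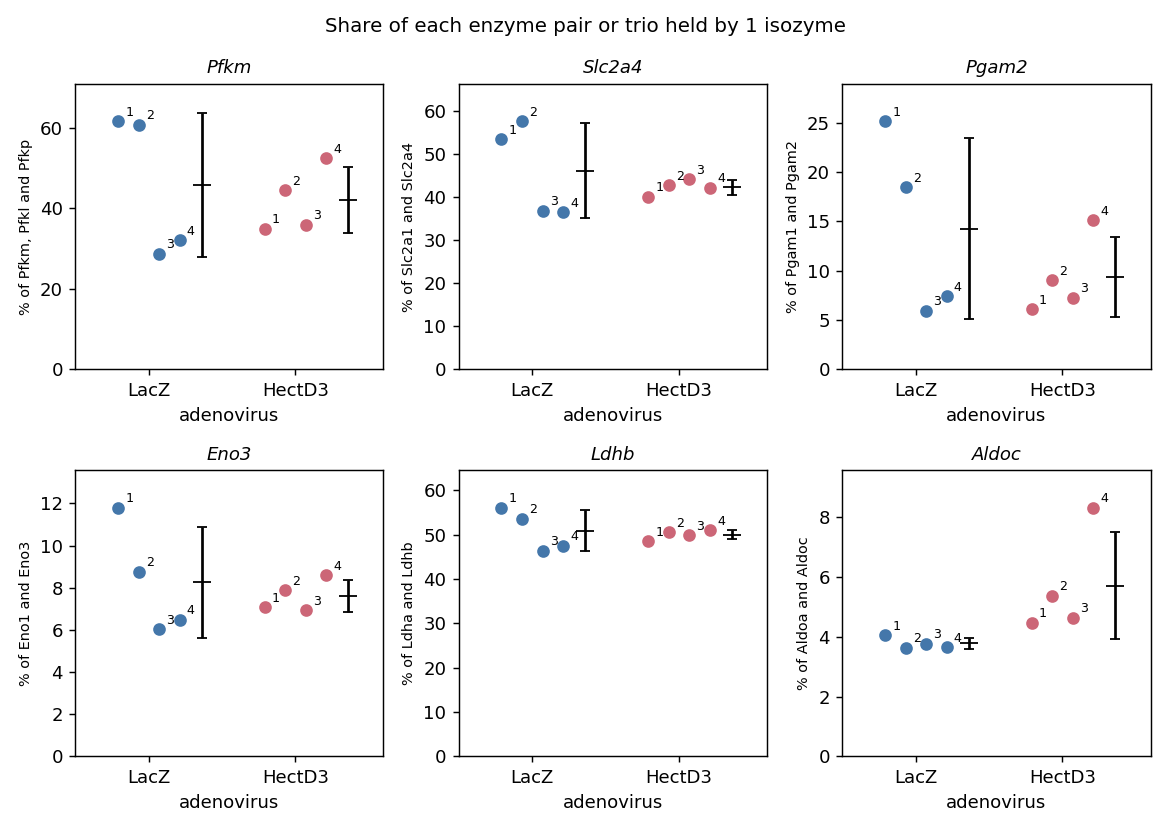
Percent of the summed FPKM of each isozyme group that 1 form held, in each of the 4 LacZ and 4 HectD3 libraries (points, with replicate numbers), beside the group mean and SD in black. Pfkm, Slc2a4, Pgam2, Eno3 and Ldhb take their largest shares in LacZ 1 and LacZ 2, whereas the Aldoc share is 3.64% to 4.05% in every LacZ library and 4.48% to 8.33% with HectD3.

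Pyruvate is turned into lactate or sent to mitochondria by the next genes. Ldhb, the heart lactate dehydrogenase, was at 941.9, 931.7, 738.2 and 735.6 FPKM with LacZ and 802.6, 813.3, 862.2 and 865.0 FPKM with HectD3. Its HectD3 libraries all lay between the LacZ pairs, and the log2 fold change was 0.01 (SE 0.10, limma adjusted p = 0.987). Ldha, the muscle form, was almost as abundant, at 738.0, 806.8, 852.6 and 814.4 FPKM with LacZ and 850.5, 795.4, 867.5 and 830.2 FPKM with HectD3. Ldhb held 46.4% to 56.1% of the FPKM of Ldha and Ldhb with LacZ and 48.6% to 51.0% with HectD3. Pdha1 and Pdhb, subunits of pyruvate dehydrogenase, averaged 236.7 and 157.5 FPKM, with ranges of 195.8 to 260.9 and 139.4 to 179.2. Pdk1, the kinase that switches pyruvate dehydrogenase off, was at 45.0, 44.8, 18.9 and 19.9 FPKM with LacZ and 17.4, 18.1, 23.3 and 25.1 FPKM with HectD3. LacZ 1 and LacZ 2 alone stood apart for this gene, and without LacZ 3 its log2 fold change was -0.70 and without LacZ 4 it was -0.68, both at an unadjusted p under 0.05. Of these 5 genes, 0 had an unadjusted p under 0.05 with all libraries in.

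The glycogen genes followed the same libraries. Pygm, the muscle phosphorylase that releases glucose phosphate from glycogen, was at 253.4, 249.8, 186.9 and 190.8 FPKM with LacZ and 209.8, 215.6, 203.9 and 206.7 FPKM with HectD3. As with Ldhb, the HectD3 libraries fell between the LacZ pairs. The log2 fold change was -0.06 (SE 0.11, limma adjusted p = 0.883). Gys1, the muscle glycogen synthase, averaged 28.6 FPKM with a range of 24.96 to 37.98.

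Among the oxygen-sensing genes and HIF targets, Vegfa, the vessel growth factor, was the most abundant, at 82.3, 71.6, 56.3 and 54.5 FPKM with LacZ and 54.5, 53.7, 50.8 and 58.1 FPKM with HectD3. Only LacZ 1 and LacZ 2 lay above the HectD3 range. The log2 fold change was -0.26 (SE 0.13, limma adjusted p = 0.719). Of its 5 transcripts, Vegfa-202 carried the excess, with 47.1 and 43.4 FPKM in LacZ 1 and LacZ 2 and 25.8 to 29.2 FPKM in the other 6 libraries, whereas Vegfa-201 ranged from 18.5 to 28.1 FPKM over all libraries. Hif1a, the oxygen-regulated HIF subunit, was at 56.2, 51.9, 29.9 and 32.1 FPKM with LacZ and 27.5, 33.5, 29.1 and 43.4 FPKM with HectD3. Egln1, a prolyl hydroxylase that marks HIF for degradation, averaged 46.4 FPKM with a range of 34.0 to 63.9. Egln3, a hydroxylase that HIF itself induces, was at 43.4, 47.2, 55.6 and 56.1 FPKM with LacZ and 57.3, 59.1, 55.8 and 32.9 FPKM with HectD3, so that LacZ 1, LacZ 2 and HectD3 4 were low for Egln3 and high for Hif1a. Bnip3, a mitophagy receptor and HIF target, averaged 60.1 FPKM with a range of 52.6 to 69.6. Adm, the vasodilator peptide adrenomedullin, was at 16.0, 6.53, 6.76 and 5.66 FPKM with LacZ and 5.52, 5.20, 5.18 and 9.67 FPKM with HectD3. Of these 7 genes, 1 was lower at an unadjusted p under 0.05 (Car9) and 0 were higher.

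The promoters of these genes show which members carry ACGTG, a form of the short sequence that HIF binds. The 5 stretches printed belong to members whose groups did not overlap and to members whose groups did. They come from RefSeq on rat build GRCr8, where 34 of the 36 members had an entry and Pgk1 and Slc2a4 had none. Each entry covers 250 bases before the gene start and 50 after it. The motif searched was ACGTG on both strands, which reads CACGT on the other strand and which overlaps the E-box CACGTG. Other forms of the HIF core, such as GCGTG, were not searched, so a member without a match may hold one. Each stretch reads 5′ to 3′ in the gene's own direction with a match in capitals. In the Ldha and Bnip3 stretches the letter before the capitals completes CACGTG, so a match on the other strand overlaps the match shown. The Ldha stretch also holds a separate match left in lower case.
Aldoc (chr10:63715495-63715535, plus strand): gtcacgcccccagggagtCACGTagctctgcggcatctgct
Car9 (chr5:62559015-62559039, plus strand): atttccgatgCACGTacagcccgtc
Pfkm (chr7:131113949-131113989, plus strand): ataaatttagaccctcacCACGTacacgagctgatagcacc
Ldha (chr1:106507988-106508028, plus strand): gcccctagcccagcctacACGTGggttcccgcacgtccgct
Bnip3 (chr1:203155038-203155078, minus strand): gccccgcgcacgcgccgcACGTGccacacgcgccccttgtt

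The motif was in 19 of the 34 member promoters (55.9%), beside 19.3% of all 33469 promoters of the same length and 24.7% of the 10353 that belong to symbols in the deposited table. Aldoc, which was higher with HectD3, and Car9, which was lower, both held it, as did Ldha and Bnip3, which overlapped between groups. Pfkfb2 had no match in its window. Of the 19 members with the motif, 1 lay on each side at an unadjusted p under 0.05, lower or higher, with a median log2 fold change of 0.00 in size, and of the 15 without it, 1 was lower and 0 higher with a median of -0.02. The member list was chosen to include known HIF targets, so its higher share is no independent sign of control by HIF. Members were counted once per gene and the other sets once per promoter entry. A match is a description of these letters, not of binding.

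Members also differed widely between libraries of the same group. LacZ 1 and LacZ 2 were both above LacZ 3 and LacZ 4 for 19 of the 36 members and both below for 9, beside 48.1% and 23.5% of all genes tested, so these shares were near the background. For 12 of those 19, HectD3 4 was also above the other HectD3 libraries, and for 7 of those 9 it was also below them. The same counts were not made over all genes. Over all genes, deviations of HectD3 4 from its group mean also correlated with those of LacZ 1 and LacZ 2 (0.54 each). These counts are therefore not read as particular to the members. By a factor of at least 1.5 between the closest libraries, 5 members were higher in LacZ 1 and LacZ 2 (Hif1a, Pdk1, Pfkm, Pgam2 and Slc2a4) and 1 was lower (Pfkp). These are 13.9% and 2.78% of the members, beside 10.1% and 3.28% of all genes tested, so both shares were near those of the whole table. The cardiomyocyte and smooth muscle marker sums given above were low in LacZ 1, LacZ 2 and HectD3 4, and their part in these levels was not tested. By contrast, Aldoa, Pkm, Gapdh, Pgk1, Eno1, Ldha, Pfkl and Tpi1 each varied less than 1.19-fold over all 8 libraries.

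**Figure D4:**
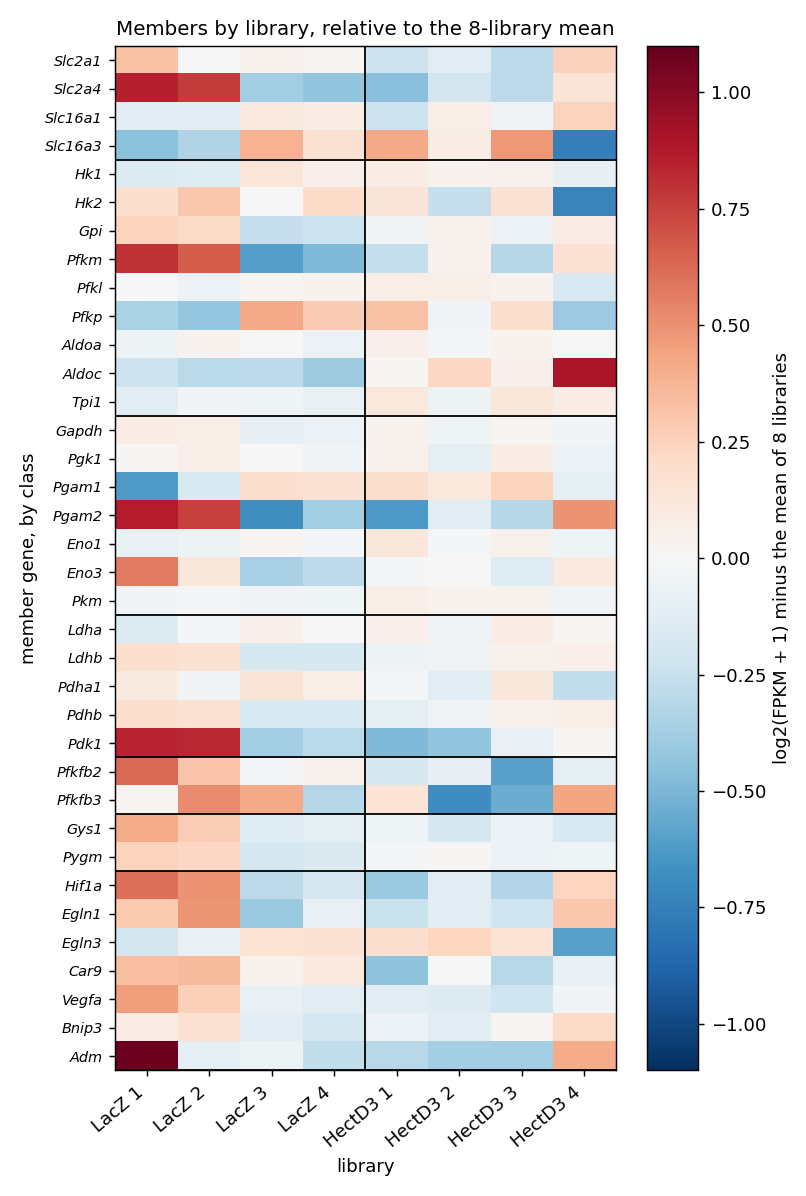
Each cell is the level of a member in a library, as log2(FPKM + 1) minus the mean of the 8 libraries, with genes ordered by class and the vertical line dividing LacZ from HectD3. Pfkm, Slc2a4, Pgam2, Pdk1 and Hif1a are high in LacZ 1 and LacZ 2 and Pfkp is low there, while Aldoc is lowest in the LacZ columns and highest in HectD3 4.

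Leaving out the 3 libraries that stood apart changed which members differed. Between LacZ 3 and LacZ 4 and HectD3 1 to 3, 6 members were higher with HectD3 at an unadjusted p under 0.05 (Aldoc, Eno3, Gpi, Ldhb, Pfkm and Pygm) and 1 was lower (Slc2a1), beside 5.16% and 4.32% of the genes tested in that fit. None passed the adjusted p. Pfkm was at 0.37 (SE 0.11, limma adjusted p = 0.395), Eno3 at 0.28 (SE 0.08, limma adjusted p = 0.378) and Gpi at 0.23 (SE 0.06, limma adjusted p = 0.344), where with all libraries the changes were -0.18, -0.02 and 0.02. Car9 at -0.32 and Pfkfb2 at -0.30 no longer had an unadjusted p under 0.05. Their HectD3 libraries lay below both LacZ libraries, which follows from their separation with all libraries in and adds nothing to it. This selection was made after the values were seen.

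A further 65 genes of the same pathways were counted, among them the pentose phosphate enzymes, other glycogen enzymes, the pyruvate carrier and further HIF targets, and 59 were present and tested. Of these, 0 passed the adjusted p, 2 were higher at an unadjusted p under 0.05 (3.39%, beside 2.87% of all genes tested) and 1 was lower (1.69%, beside 4.28%). The higher genes are named because they are few, after their values were seen. Mpc2, a subunit of the mitochondrial pyruvate carrier, was at 170.9, 188.0, 179.0 and 183.0 FPKM with LacZ and 196.5, 194.7, 213.1 and 218.4 FPKM with HectD3, without overlap (log2 fold change 0.19, SE 0.07, limma adjusted p = 0.662). Pgm2, a phosphoglucomutase, was at 10.2 to 13.17 FPKM with LacZ and 13.23 to 14.8 FPKM with HectD3, without overlap by a narrow gap. These 2 were the genes of this list above without overlap (3.39%, beside 2.44% of all genes tested), and 1 lay below (1.69%, beside 2.81%). Over the 59 genes the median log2 fold change was -0.08, with 20 higher and 39 lower on the log2 scale, where all genes tested had a median of -0.02, with 5588 higher and 6979 lower.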

How the data were processed

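RNA was sequenced from 4 LacZ and 4 HectD3 libraries of NRVCMs, matched to groups and replicate numbers by the sample labels. The authors aligned reads with HISAT2, estimated transcripts with StringTie and deposited FPKM for 15976 transcripts. The sources used here give no tool versions, genome build or strand setting. The deposited FPKM hold no counts, and at most 1.30% of low values in any pair of libraries shared a ratio, so depth is unknown and no counting error is given. FPKM were summed per gene symbol. Genes averaging 0.5 FPKM or more entered limma (version 3.58.1, with the trend option, in R version 4.3.3) on log2(FPKM + 1), two-sided, adjusted by Benjamini-Hochberg over 12567 genes. Every fold change is on this scale, which understates low genes. The fit was tested on simulated data with independent noise in every library. Those data lack the shared differences between libraries seen here, so that test does not cover them. The members, lists and tests were chosen with earlier results of these data known. Fold changes are given for members at an unadjusted p under 0.05, members whose groups did not overlap, and the most abundant member of each class, and for a few others beside these, chosen after their values were seen. Isozyme shares are of the named forms alone (Eno2 and Hk3 are not in the sums) and had no test. Alternatives covered pseudocounts, filters, scaling, transcripts, models and left-out libraries. Promoters are from RefSeq GRCr8, which was not mixed with the coordinates of the deposited table. A single gene outside the members is not reported here and stayed in the fits and counts.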

Additional observations from a re-analysis of the deposited data

Results flagged for a closer look

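In groups of 4, a library was flagged when its gap to the nearest other library took up more of the group's range than Dixon's critical value allows. Of 72 groups of members examined, 5 were flagged, and chance flags about 1 in 20 groups. Adm was at 16.0 FPKM in LacZ 1, where the other LacZ libraries held 5.66 to 6.76 FPKM, and at 9.67 FPKM in HectD3 4, where the others held 5.18 to 5.52 FPKM. Slc2a1 was at 51.7 FPKM in LacZ 1, above 41.1 to 42.4 FPKM in the rest of the group. In HectD3 4, Egln3 was at 32.9 FPKM, below 55.8 to 59.1 FPKM, and Pfkl was at 30.3 FPKM, below 35.1 to 35.8 FPKM. All 5 values are from LacZ 1 or HectD3 4, which also stood apart over all genes.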

How the results depend on the processing

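No alternative brought a member past an adjusted p of 0.05. The 2 members lower at an unadjusted p became 0 with a mean of at least 5 FPKM or a p under 0.01, 1 with the most abundant transcript, and 4 with the first principal component as covariate. The share of all genes lower was 3.70% with that filter, 3.99% with that transcript and 6.17% with that covariate. It was not counted for a p under 0.01. The 1 higher member became 2 with library weights, the library-size covariate or the first principal component. Over all genes, 6.12%, 6.57% and 7.79% were higher in those fits, where the main fit had 2.87%. Without LacZ 1, LacZ 2 and HectD3 4, chosen after seeing the data as was the principal component, there were 1 lower and 6 higher, with 5 below and 11 above without overlap, beside 11.2% and 16.5% of all genes in that fit. The 2 below without overlap became 0 at 5 FPKM and 1 with the most abundant transcript, beside 2.37% and 2.64% of all genes. Leaving out single libraries gave 1 to 5 lower and 1 to 2 higher, beside 2.62% to 6.88% and 1.76% to 3.51% of all genes. It also gave 2 to 4 below and 1 to 3 above, beside 3.54% to 5.58% and 3.16% to 4.56%. A left-out library cannot undo a separation, so these member counts could only stay or rise. Calls gained this way were Hk2 (-0.45) and Pdha1 (-0.21) without HectD3 3, Tpi1 (0.18) without HectD3 2 and Gys1 (-0.31) without LacZ 3, besides Pdk1, Vegfa and Slc2a1. Aldoc, Car9, Pfkfb2, Pfkfb3 and Vegfa kept their sign throughout (Car9 and Pfkfb2 were below the 5 FPKM filter). Aldoc ran from 0.40 to 0.71 (adjusted p 0.109 to 0.934). Members near zero changed sign: Aldoa was -0.013 as TPM and -0.051 by quantiles, Ldhb -0.042 and -0.075, Slc16a1 -0.026 and -0.018. Gapdh was 0.021 by median ratio. Under library weights Gapdh was 0.054, Pygm 0.11 and Slc16a1 -0.093. With the library-size covariate Gapdh was 0.029 and Pygm 0.061. Without the 3 libraries Gapdh was 0.081, Pygm 0.15 and Slc16a1 -0.16. With the principal component Gapdh was 0.026 and Pygm 0.040. With single libraries left out, Gapdh ran from -0.034 to 0.021, Ldhb from -0.051 to 0.068, Pygm from -0.13 to 0.011 and Slc16a1 from -0.055 to 0.10. With the most abundant transcript, the mean share of Pfkfb2 in the summed FPKM of Pfkfb2 and Pfkfb3 moved from 41.3% to 27.2% with LacZ and from 37.5% to 59.9% with HectD3, and that of Pfkfb3 to 72.8% and 40.1%, while the other isozyme shares moved by less than their SD. The causes were not tested. No pairing by replicate number was seen (correlations of same-numbered deviations -0.37, -0.01, 0.34 and -0.61). The libraries that stood apart weigh on these values, so they cannot show that pairing was absent. A replicate block left 2 lower and 1 higher, beside 3.58% and 1.33% of all genes. The depth is unknown, so the precision of low members such as Car9 cannot be given.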
